A study of Mus musculus with 16 samples.

Results

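The 38 genes described here encode the machinery that ties chromosomes to the mitotic spindle: centromeric chromatin and its loading factors, the inner and outer kinetochore, the fibrous corona, the spindle assembly checkpoint, the shugoshins and the chromosomal passenger complex. They were chosen by symbol, from a list of names grouped by complex, and are 38 of the 49584 genes in the count table. Sgo1 and Sgo2a are listed there under their older symbols Sgol1 and Sgol2a. All 38 had enough reads to be tested, among 15240 genes in all. Germinal centre B cells were sorted from spleens of C57BL/6J mice at 3 months of age, 8 days after the mice had received sheep red blood cells (SRBC), and their RNA was sequenced. Mutant mice were Ezh2(Y641F)fl/wt;Cγ1-cre+/-, with 1 conditional allele of the histone methyltransferase gene Ezh2 that encodes the lymphoma change Y641F. Control mice were Cγ1-cre+/-, so they carried the recombinase as well, without the conditional allele. The recombinase is driven from the immunoglobulin Cγ1 locus, which B cells transcribe as they enter the germinal centre, and the share of sorted cells that had recombined the allele was not analysed here. All cells were B220+ FAS+ CD38-. Centrocytes, the cells of the light zone, were CXCR4- CD86+, and centroblasts, the dividing cells of the dark zone, were CXCR4+ CD86-. The 4 groups were mutant centrocytes, control centrocytes, mutant centroblasts and control centroblasts, with 4 libraries in each. The series' text calls them biological replicates, and the labels place every mouse in litter 1.

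Centromeres are marked by nucleosomes that hold the histone H3 variant CENP-A, which a dedicated chaperone deposits. On them sits the constitutive centromere-associated network, which in mitosis recruits the KNL1, MIS12 and NDC80 complexes that grip spindle microtubules. Kinetochores without a microtubule send out the checkpoint signal that holds back anaphase, and Aurora B kinase with its partners releases faulty attachments. Transcripts of many of these genes accumulate in G2 and mitosis, so in the germinal centre they are known chiefly from dividing centroblasts.

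Promoters of such genes often carry a CCAAT box, bound by NF-Y, and a cell cycle genes homology region (CHR), bound by the DREAM and MMB complexes. Windows of 250 bases before to 50 bases after the transcript start came from RefSeq (GRCm38.p6). They covered 33 members in 37 windows, and not Nsl1, Spc24, Ska1, Aurkb and Incenp. Both strands were searched for the CHR (TTTGAA or TTCGAA), the CCAAT box (CCAAT) and an E2F site (TTTGGCGC, TTTCCCGC, TTTCGCGC or TTTGCCGC). A CHR was in 18 of the 37 member windows (48.6%), against 19.2% of all 32841 windows. A CCAAT box was in 29 member windows (78.4%), against 37.4% of all. Both were in 16 member windows (43.2%), against 7.52% of all, and an E2F site was in 3 (8.11%), those of Cenpl, Cenpm and Dsn1, against 2.27% of all. Windows of the same gene can overlap, as those of Bub3 do, so the same site can count in each. These matches describe letters in a window and show no binding.

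The 250 bases before the start are shown for Bub1b (chr2:118597961-118598210, plus strand), which was lower in centrocytes of both genotypes, for Cenpf (chr1:189688087-189688336, minus strand), which had the largest fall of all members in mutant centrocytes, and for Cenph (chr13:100775900-100776149, minus strand), which fell in mutants in both cell types. None of these stretches overlaps an exon of GENCODE M21. Each is written 5′ to 3′ on the gene's strand, and capitals mark the motif matches, where ATTGG is the CCAAT box read on the other strand.
Bub1b: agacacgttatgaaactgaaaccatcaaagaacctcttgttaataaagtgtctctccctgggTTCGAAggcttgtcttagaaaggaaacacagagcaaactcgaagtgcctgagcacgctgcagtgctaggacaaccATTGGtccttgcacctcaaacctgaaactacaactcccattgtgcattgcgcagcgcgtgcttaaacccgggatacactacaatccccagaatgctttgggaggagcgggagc
Cenpf: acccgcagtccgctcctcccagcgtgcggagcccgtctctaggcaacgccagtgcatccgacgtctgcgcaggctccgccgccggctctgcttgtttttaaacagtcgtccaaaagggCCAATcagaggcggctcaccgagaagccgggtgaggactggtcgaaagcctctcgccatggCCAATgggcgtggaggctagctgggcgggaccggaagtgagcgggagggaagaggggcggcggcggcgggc
Cenph: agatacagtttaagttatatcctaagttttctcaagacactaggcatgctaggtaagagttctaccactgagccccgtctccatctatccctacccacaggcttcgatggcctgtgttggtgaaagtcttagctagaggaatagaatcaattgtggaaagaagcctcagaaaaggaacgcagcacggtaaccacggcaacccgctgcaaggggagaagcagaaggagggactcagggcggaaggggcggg
Before the start, Bub1b held the TTCGAA form of the CHR and 1 CCAAT box, Cenpf held 2 CCAAT boxes, and Cenph held no match. After the start, Bub1b and Cenpf each held the TTTGAA form of the CHR, and Cenph held 1 CCAAT box.

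In several members the CHR lay just after the start. The 30 bases around it are shown for 3 members called in at least 1 comparison, and for Hjurp, which passed none of the unpaired tests, with the CHR in capitals. They are chr5:30666890-30666919 (plus strand) for Cenpa, and on the minus strand chr1:189688067-189688096 for Cenpf, chr17:53689271-53689300 for Sgo1 and chr1:88277543-88277572 for Hjurp, all in GRCm38.p6.
Cenpa: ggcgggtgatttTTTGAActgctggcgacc
Cenpf: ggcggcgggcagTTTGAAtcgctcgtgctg
Sgo1: gtaacgcagaatTTCGAAtgtggcggcggt
Hjurp: tgcgtaaatactTTTGAAagaccctattag
Counted from 1 at the first base of the transcript, the motif began at base 17 in Cenpa, 3 in Cenpf, 28 in Sgo1 and 20 in Hjurp. Hjurp thus held the same letters as Cenpa and Cenpf.

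Library totals lay between 35230563 and 44466911 reads assigned to genes. Values below are CPM, read counts scaled to a common library size with edgeR's TMM factors, and summed levels are in the same unit. Means are given with the SD over the 4 libraries of a group (n = 4). Differences are log2 fold changes with their standard errors, mutant over control or centrocytes over centroblasts, and a gene is called where the adjusted p of edgeR's quasi-likelihood test was under 0.05. These p-values measure the spread between the libraries. Y-linked transcripts showed libraries 1 and 2 of every group to be male and libraries 3 and 4 female. The 9 germinal centre B cell markers summed to 5011 to 5568 CPM in mutant centrocytes, 4460.4 to 4959 in control centrocytes, 5189 to 5724 in mutant centroblasts and 5067 to 5375 in control centroblasts. Some libraries stood apart from their groups. Control centroblast library 4 was low for AT-rich transcripts, and mutant centroblast library 4 deviated from its group in the same direction. Trends with GC content were also found in centrocyte libraries, as given below. The 16 macrophage markers summed to 263 and 259 CPM in mutant centrocyte libraries 3 and 4, against 45.5 and 70.3 in libraries 2 and 1 and 62.6 to 105 in control centrocytes. Of these 16 markers, 2 were called higher in mutant than in control centrocytes. None of the 16 had a negative log2 fold change there, and the median was 0.97. In centroblast libraries 1 to 4 the macrophage markers summed to 31.9, 27.5, 77.1 and 74.0 CPM in mutants and 20.2, 37.7, 52.6 and 57.8 in controls. In both centroblast groups, but not in control centrocytes, the female libraries 3 and 4 were the higher pair. T cell markers summed to at most 3.04 CPM in every library. Of 4 erythroid markers tested, Hbb-bt was called higher in mutant than in control centrocytes. The median log2 fold change of these 4 was 0.75. Ezh2 averaged 189 ± 15.2 CPM in mutant and 245 ± 15.0 CPM in control centrocytes, a log2 difference of −0.37 ± 0.12 (adjusted p = 0.0395), but these counts do not separate its alleles and so do not check the genotype labels.

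In centrocytes, 14 of the 38 genes fell in mutants and none rose. Among all 15240 tested genes, 9.15% fell and 7.37% rose. The whole chromosomal passenger complex fell (Aurkb, Incenp, Birc5 and Cdca8), as did both corona genes (Cenpe and Cenpf), the outer kinetochore genes Nsl1, Dsn1 and Spc24, the inner kinetochore genes Cenph, Cenpi, Cenpn and Cenpt, and the shugoshin Sgo1. None of the 5 checkpoint genes and none of the 3 genes of CENP-A deposition passed the test. The log2 fold change was negative for 33 of 38 members, against 49.9% of all tested genes, and the median was −0.38 over the members and 0.0014 over all tested genes. In 22 members every mutant library lay below every control library, as it did for 12.4% of all tested genes. The members together summed to 2563 to 2660.5 CPM in mutant and 3130.3 to 3467 CPM in control centrocytes. In bulk RNA such as this, fewer cells that express a gene and less RNA per cell cannot be told apart. The count was 8 without control centrocyte library 2 or 4, where 6.33% and 6.42% of all tested genes fell. It was 9 without mutant centrocyte library 1, 2 or 4, where 7.95%, 6.87% and 7.13% of all tested genes fell. Without mutant centrocyte libraries 3 and 4 it was 5, with a median of −0.39, and 4.55% of all tested genes fell. That run, like the later ones without these libraries, kept only the 2 male mutant centrocyte libraries, against groups of both sexes. It thus does not separate macrophage RNA from sex. Of the 14, Nsl1, Dsn1, Cenpi and Birc5 still passed in that run, while Incenp, for example, had an adjusted p of 0.107. The part of macrophage RNA in these values was not tested.

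In centroblasts, 4 members fell in mutants and none rose: Nsl1, Dsn1, Cenpi and Cenph. Among all tested genes, 6.4% fell and 4.06% rose, so the share of members called was near the background. Direction was more uniform than the calls, with a negative log2 fold change in 33 of 38 members, against 49% of all tested genes, and medians of −0.28 over the members and 0.0083 over all tested genes. In 5 members, Cenph, Dsn1, Nsl1, Ska1 and Bub1b, every mutant library lay below every control library, against 8.01% of all tested genes. The members summed to 3678 to 3879 CPM in mutant and 3992 to 4542 CPM in control centroblasts. Single libraries moved the count. It was 1 without mutant centroblast library 1 or 4, where 4.7% and 5.25% of all tested genes fell. It was 2 without control centroblast library 2 or 3 (4.66% and 4.99% of all), and 14 without control centroblast library 4 (8.45% of all). The 4 genes called in centroblasts were all among the 14 called in centrocytes, 100% of the shorter list and 28.6% of the longer.

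**Figure D1:**
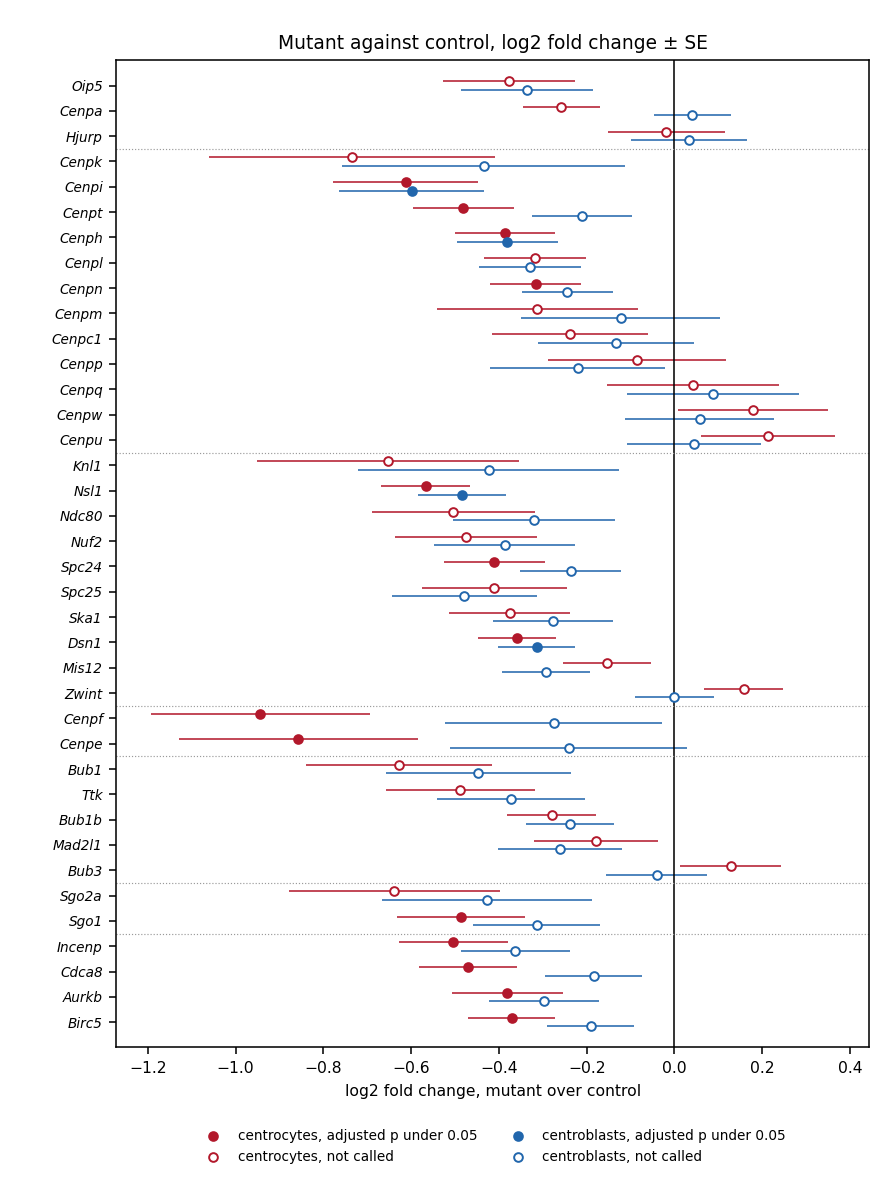
Log2 fold change of each member, mutant over control, with its SE (edgeR, 4 libraries per group); red circles are centrocytes and blue circles centroblasts, filled where the adjusted p was under 0.05, and dotted lines separate the complexes. Of 38 members, 14 are filled in centrocytes and 4 in centroblasts, all to the left of 0.

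Between the zones, 19 members were lower in mutant centrocytes than in mutant centroblasts and none was higher, where 7.07% of all tested genes were lower and 8.92% higher. In controls 17 members were lower in centrocytes and none was higher, where 12.9% of all tested genes were lower and 14.9% higher. Of these, 15 genes were called in both genotypes, 78.9% of the mutant list and 88.2% of the control list: Cenpa and Oip5, Cenpl, Cenpn and Cenpp, Nuf2, Spc24 and Ska1, Bub1b, Bub3 and Mad2l1, Sgo1, and Incenp, Birc5 and Cdca8. Negative log2 fold changes were found for 35 members in mutants, against 48% of all tested genes, and for 37 in controls, against 49.6%. The median was −0.48 over the members and 0.018 over all tested genes in mutants, and −0.34 and 0.0049 in controls. Every centrocyte library lay below every centroblast library for 18 members in mutants, against 10.5% of all tested genes, and for 15 in controls, against 12.3%. Naive B cell markers, 8 in number, moved with the zone as well: they summed to 1551 to 1846 CPM in mutant centrocytes against 645 to 799 in mutant centroblasts, and to 1501 to 1828 CPM in control centrocytes against 523 to 673 in control centroblasts. Of these 8, 5 were called higher in centrocytes of each genotype. The 5 plasma cell markers summed to 944 to 1256 CPM in mutant centrocytes against 1580.3 to 2212 in mutant centroblasts, and to 988 to 1212 CPM in control centrocytes against 1563 to 1892 in control centroblasts. Single plasma cell markers went both ways. In mutants Irf4 was called higher in centrocytes and Xbp1 and Jchain lower, with a median log2 fold change of 0.15. In controls Prdm1 and Irf4 were called higher and Jchain lower, with a median of 0.094. Of the 16 macrophage markers, 4 were called higher in mutant centrocytes than in mutant centroblasts (Cd68, C1qa, C1qb and Fcgr1), with a median log2 fold change of 1.57 over the 16, and 1 (Cd68) in controls, with a median of 0.85. The part of these marker sets in the result was not tested. Same-numbered mutant libraries deviated together, as did some mutant libraries of the same sex with different numbers. With the number as a block and the mutant groups fitted alone, 27 members were lower in mutant centrocytes. In that fit 10.4% of all tested genes were lower. Without the block, the mutant groups fitted alone gave 20 members and 8.03% of all tested genes. Against the main fit of all 16 libraries, the 9 added with the block were Hjurp (adjusted p = 0.0364), Cenpi (0.0331), Cenpk (0.0213), Cenpw (0.0312), Spc25 (0.0250), Cenpe (0.00968), Bub1 (0.0116), Ttk (0.0422) and Sgo2a (adjusted p = 0.0186). Dsn1 was lost (adjusted p = 0.0622). The control groups fitted alone gave 13 members with the block and 13 without it. In these fits 9.6% and 10.5% of all tested genes were lower. With sex as a covariate in the fit of all 16 libraries, 19 members were lower in mutant and 18 in control centrocytes. The shares of all tested genes were 7.32% and 13%. The unpaired mutant count was 11 without the female mutant centrocyte libraries 3 and 4, where 4.54% of all tested genes were lower. The control count was 11 without control centrocyte library 3, where 8.78% of all tested genes were lower.

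**Figure D2:**
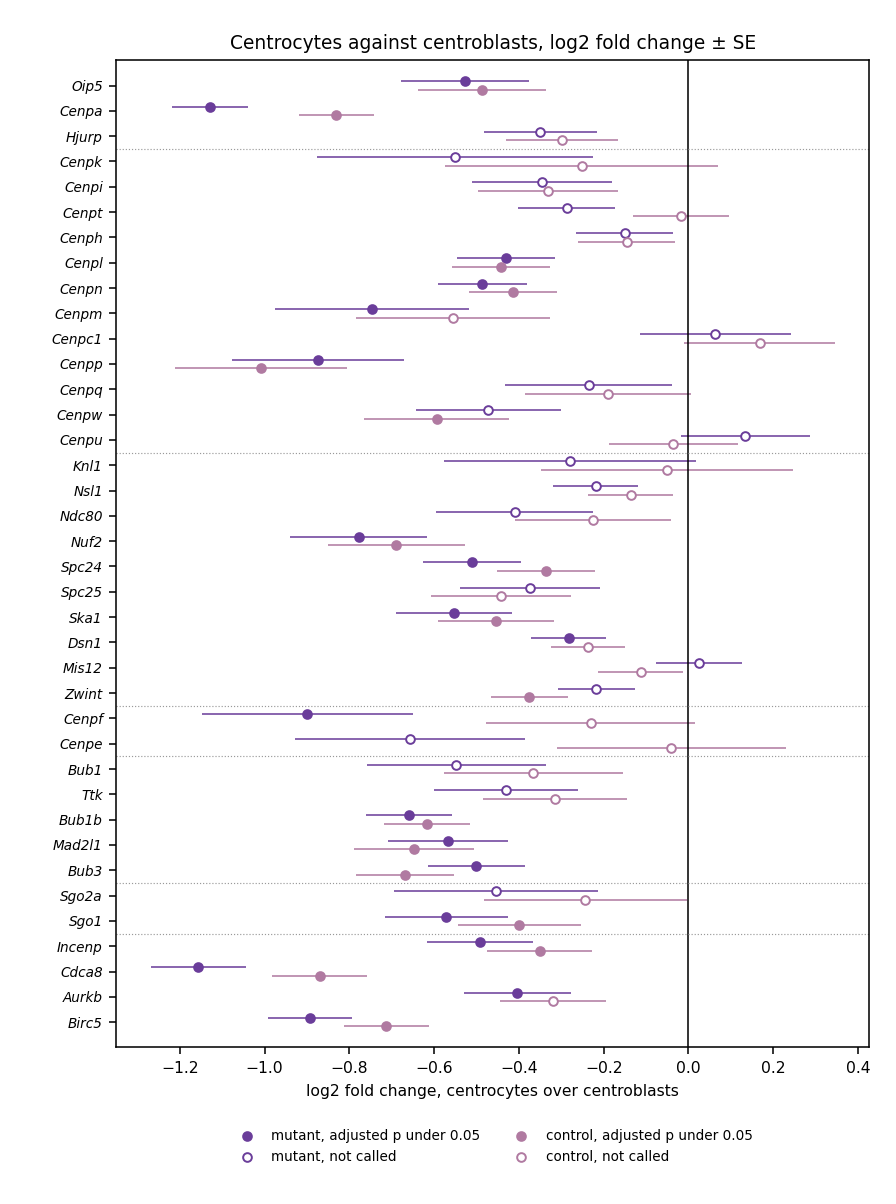
Log2 fold change of each member, centrocytes over centroblasts, with its SE (edgeR, 4 libraries per group); dark circles are mutants and pale circles controls, filled where the adjusted p was under 0.05. Filled circles number 19 in mutants and 17 in controls, and Cdca8 and Cenpa lie farthest to the left in mutants.

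Whether the genotype difference itself depended on the zone was tested as an interaction. No gene of the 15240 passed in edgeR (0%). The unadjusted p was under 0.05 for 429 genes. DESeq2 called 1 gene, which was not a member. Cenpa was the 1 member with an unadjusted p under 0.05 (0.0278), with a difference of differences of −0.30 ± 0.12 (adjusted p = 0.999). It was −0.67 ± 0.35 for Cenpf and −0.29 ± 0.16 for Cdca8, also with an adjusted p of 0.999. The larger number of calls in centrocytes therefore does not show a different genotype effect there.

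**Figure D3:**
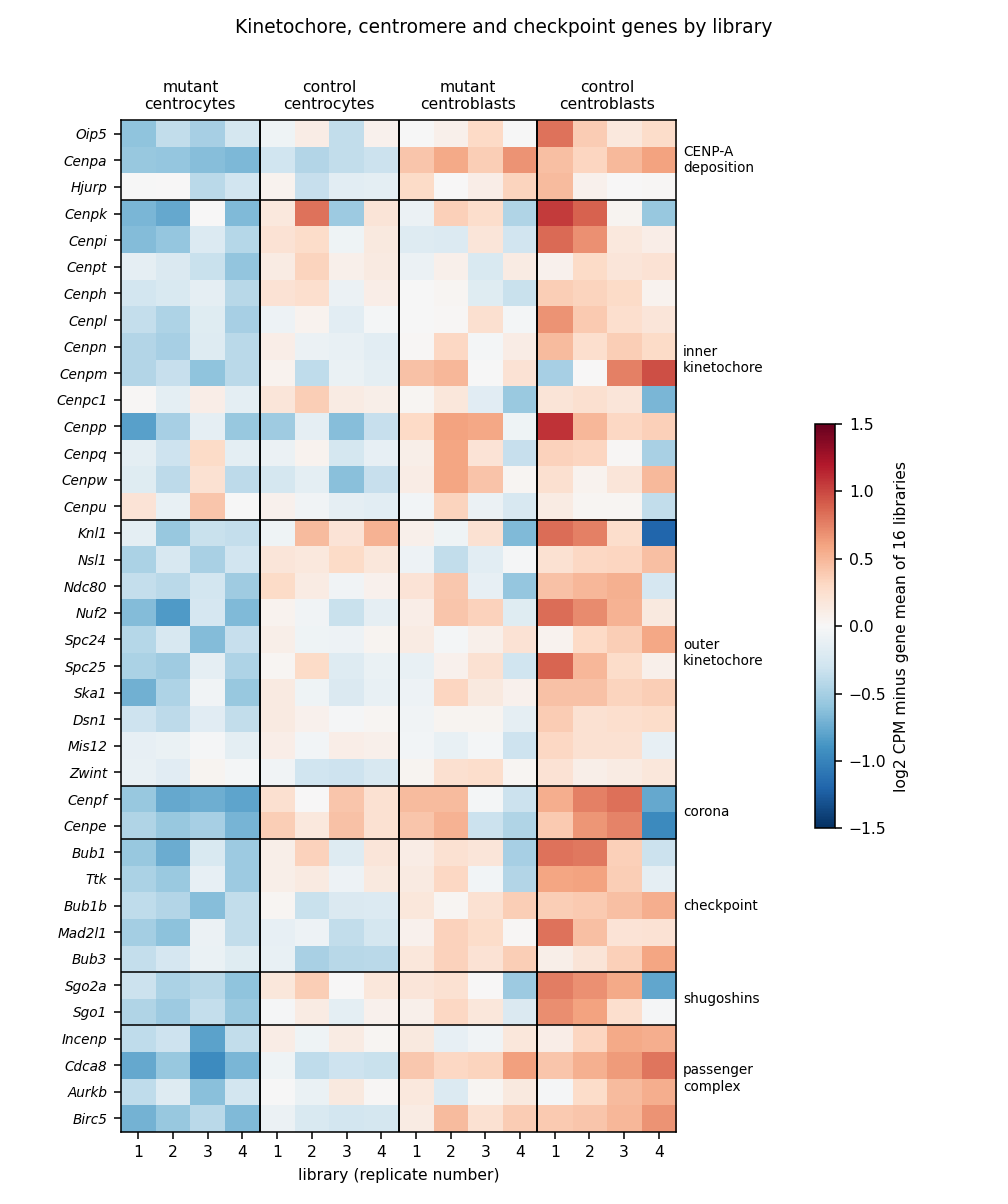
Each cell gives the log2 CPM of a gene in a library minus the gene's mean over all 16 libraries (red above, blue below), with members in rows by complex and libraries 1 to 4 of each group in columns. Mutant centrocytes are blue for nearly every member, and control centroblast library 4 is blue for Knl1, Cenpe, Cenpf and Sgo2a while the other control centroblast libraries are red.

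Of the 3 genes of CENP-A deposition, Cenpa and Oip5 were called between the zones, and none was called between the genotypes. Cenpa (chr5:30666777-30674830; gene coordinates are those of GENCODE M21, GRCm38), which encodes the centromeric histone, had 83.4, 82.8, 79.4 and 77.5 CPM in the 4 mutant centrocyte libraries against 100.4, 90.9, 96.0 and 98.97 CPM in the control centrocyte libraries. Its centroblast values were 166, 184, 159.5 and 198 CPM in the 4 mutant libraries against 169.9, 155, 173 and 188 CPM in the control libraries. The zones did not overlap in either genotype, at −1.13 ± 0.09 (adjusted p = 1.74e-07) in mutants and −0.83 ± 0.09 (adjusted p = 3.68e-06) in controls. In centrocytes all mutant libraries lay below all control libraries, but the difference of −0.26 ± 0.09 missed the threshold (adjusted p = 0.0542), and in centroblasts the groups overlapped (0.04 ± 0.09, adjusted p = 0.833). Hjurp (chr1:88262471-88277633), the CENP-A chaperone and the member with the most reads, had 548, 552, 416 and 449.7 CPM in the 4 mutant centrocyte libraries against 568, 432, 493 and 498 CPM in the control centrocyte libraries. In the centroblast groups the values were 673, 554, 588 and 691 CPM in the 4 mutant libraries against 766, 573, 554 and 556 CPM in the control libraries. The genotypes overlapped in both cell types, and Hjurp passed no unpaired test: its zone difference was −0.35 ± 0.13 (adjusted p = 0.0844) in mutants and −0.30 ± 0.13 (adjusted p = 0.105) in controls. Its genotype differences were −0.02 ± 0.13 (adjusted p = 0.942) in centrocytes and 0.03 ± 0.13 (adjusted p = 0.918) in centroblasts. Oip5, whose human protein is a subunit of the Mis18 complex that guides the chaperone to centromeres, was lower in centrocytes, at −0.53 ± 0.15 (adjusted p = 0.0235) in mutants and −0.49 ± 0.15 (adjusted p = 0.0230) in controls. The call of Oip5 ended in mutants without mutant centroblast library 3 or mutant centrocyte library 1 or 3 (adjusted p up to 0.0841) and in controls without control centroblast library 1 or control centrocyte library 3 (adjusted p up to 0.0789).

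Of the 12 genes of the inner kinetochore, 4 fell in mutant centrocytes, 2 of them also in mutant centroblasts, and 4 were lower in centrocytes than in centroblasts in each genotype. Cenpi and Cenph encode subunits of one subcomplex with CENP-K and CENP-M. Cenpi had 20.03, 21.0, 27.3 and 23.4 CPM in the 4 mutant centrocyte libraries against 36.7, 38.2, 30.2 and 34.9 CPM in the control centrocyte libraries. Among centroblasts the libraries had 27.6, 27.2, 35.8 and 25.7 CPM in the 4 mutant libraries against 56.7, 50.6, 35.1 and 33.8 CPM in the control libraries. Mutants were lower at −0.61 ± 0.17 (adjusted p = 0.0175) in centrocytes and −0.60 ± 0.16 (adjusted p = 0.0257) in centroblasts, where mutant library 3 overlapped the controls. Cenph had 19.6, 20.2, 21.7 and 17.8 CPM in the 4 mutant centrocyte libraries against 27.6, 28.3, 22.4 and 25.4 CPM in the control centrocyte libraries. Centroblasts had 23.7, 24.3, 21.0 and 18.9 CPM in the 4 mutant libraries against 30.8, 30.0, 29.1 and 24.7 CPM in the control libraries. Its genotypes did not overlap in either cell type, with differences of −0.39 ± 0.11 (adjusted p = 0.0292) and −0.38 ± 0.11 (adjusted p = 0.0410). Cenpk and Cenpm, the other genes of this subcomplex, were not called between genotypes, at −0.73 ± 0.33 (adjusted p = 0.132) and −0.31 ± 0.23 (adjusted p = 0.373) in centrocytes. Their libraries scattered widely: Cenpk ranged from 9.54 to 29.5 CPM and Cenpm from 19.9 to 54.9 CPM within control centroblasts. In centrocytes, the call of Cenpi ended without control centrocyte library 2 or mutant centrocyte library 1 or 2 (adjusted p up to 0.0537) and that of Cenph without control centrocyte library 1, 2 or 4 or mutant centrocyte library 1, 2 or 4 (adjusted p up to 0.0923). In centroblasts the call of Cenpi ended without control centroblast library 1 or 2 or mutant centroblast library 1, 2 or 4 (adjusted p up to 0.0888) and that of Cenph without control centroblast library 1, 2 or 3, mutant centroblast library 1, 3 or 4 or control centrocyte library 2 or 4 (adjusted p up to 0.117).

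Cenpt, whose protein reaches from DNA to the NDC80 complex, had 35.1, 33.1, 30.5 and 25.4 CPM in the 4 mutant centrocyte libraries against 42.0, 48.4, 40.5 and 42.4 CPM in the control centrocyte libraries. The centroblast libraries had 36.3, 40.8, 32.7 and 41.9 CPM in the 4 mutant libraries against 40.1, 46.9, 43.7 and 44.7 CPM in the control libraries. In centrocytes the genotypes did not overlap, at −0.48 ± 0.11 (adjusted p = 0.00853); in centroblasts they overlapped (−0.21 ± 0.11, adjusted p = 0.293), and the difference between these effects was not called. Without mutant centrocyte libraries 3 and 4 its adjusted p in centrocytes was 0.124. Cenpn, whose protein reads the CENP-A nucleosome, had 42.3, 40.7, 50.3 and 43.2 CPM in the 4 mutant centrocyte libraries against 61.3, 54.2, 52.9 and 51.3 CPM in the control centrocyte libraries. Its centroblast values were 57.9, 71.2, 56.1 and 61.9 CPM in the 4 mutant libraries against 80.0, 68.3, 74.4 and 70.0 CPM in the control libraries. It was lower in centrocytes at −0.49 ± 0.10 (adjusted p = 0.00365) in mutants and −0.41 ± 0.10 (adjusted p = 0.00707) in controls, without overlap. Its genotype difference in centrocytes, −0.32 ± 0.10 (adjusted p = 0.0464), was the call nearest the threshold but for Aurkb, and it ended without control centroblast library 2 or 3, mutant centroblast library 1, 3 or 4, control centrocyte library 1, 2, 3 or 4 or mutant centrocyte library 1, 2 or 4 (adjusted p up to 0.119). Cenpp, a subunit of the CENP-O complex, had 5.80, 7.25, 9.33 and 6.92 CPM in the 4 mutant centrocyte libraries against 7.09, 9.35, 6.57 and 8.07 CPM in the control centrocyte libraries. In the centroblast groups the values were 12.7, 15.75, 15.4 and 9.84 CPM in the 4 mutant libraries against 21.9, 14.6, 12.8 and 13.2 CPM in the control libraries. Zones did not overlap, at −0.87 ± 0.20 (adjusted p = 0.00629) in mutants and −1.01 ± 0.20 (adjusted p = 0.00144) in controls, whereas the genotypes did in both cell types.

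The remaining inner kinetochore genes were Cenpl, Cenpw, Cenpc1, Cenpq and Cenpu. Cenpl, the partner of Cenpn, averaged 28.5 ± 2.90 CPM in mutant centrocytes against 38.4 ± 3.38 in mutant centroblasts, and 35.6 ± 2.15 in control centrocytes against 48.3 ± 7.56 in control centroblasts. It was called between the zones in both genotypes, at −0.43 ± 0.12 (adjusted p = 0.0167) in mutants, a call that ended without mutant centroblast library 3 or mutant centrocyte library 2 or 4 (adjusted p up to 0.0690), and −0.44 ± 0.12 (adjusted p = 0.00912) in controls. Cenpw, the histone-fold partner of Cenpt, was lower in control centrocytes at −0.59 ± 0.17 (adjusted p = 0.0159), a call that ended without control centrocyte library 3 (adjusted p = 0.0630), and −0.47 ± 0.17 in mutants (adjusted p = 0.0701). Cenpm was lower in mutant centrocytes than in mutant centroblasts, at −0.75 ± 0.23 (adjusted p = 0.0336), and this call ended without mutant centroblast library 1, 2 or 4 or mutant centrocyte library 1, 2, 3 or 4 (adjusted p up to 0.0888). Cenpc1, which encodes the protein that bridges CENP-A chromatin to the outer kinetochore, and Cenpq and Cenpu, of the CENP-O complex, passed none of the tests, and their log2 differences between zones lay between −0.24 and 0.17. Between genotypes Cenpq, Cenpu and Cenpw had positive estimates in both cell types, up to 0.21 ± 0.15 (adjusted p = 0.362) for Cenpu in centrocytes.

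All 3 members from the MIS12 complex, the hub that joins the inner to the outer kinetochore, had lower estimates in mutants, and Nsl1 and Dsn1 were called in both cell types. Nsl1 (chr1:191063012-191086474) had 21.2, 25.1, 21.2 and 24.3 CPM in the 4 mutant centrocyte libraries against 33.6, 33.0, 36.0 and 33.4 CPM in the control centrocyte libraries. Among centroblasts the libraries had 28.2, 22.8, 26.6 and 29.2 CPM in the 4 mutant libraries against 34.9, 36.9, 37.1 and 40.6 CPM in the control libraries. No mutant library reached a control library of the same cell type, and the differences were −0.57 ± 0.10 (adjusted p = 0.00113) in centrocytes and −0.48 ± 0.10 (adjusted p = 0.00415) in centroblasts. Nsl1 was the member with the smallest genotype p in both cell types, and its call held whichever library was left out. Dsn1 had 28.5, 26.8, 31.4 and 27.3 CPM in the 4 mutant centrocyte libraries against 38.7, 36.8, 34.8 and 35.9 CPM in the control centrocyte libraries. Centroblasts had 34.0, 36.2, 36.2 and 32.2 CPM in the 4 mutant libraries against 46.0, 41.4, 42.2 and 42.8 CPM in the control libraries. Again no mutant library overlapped a control library of the same cell type, with differences of −0.36 ± 0.09 (adjusted p = 0.0104) in centrocytes and −0.31 ± 0.09 (adjusted p = 0.0285) in centroblasts. The centroblast call of Dsn1 ended without control centroblast library 1 or 3 or mutant centroblast library 1 or 4 (adjusted p up to 0.0831). Between zones Dsn1 was lower in mutant centrocytes at −0.28 ± 0.09 (adjusted p = 0.0370), a call that ended without control centroblast library 2, mutant centroblast library 1, 2 or 3, control centrocyte library 2 or 3 or mutant centrocyte library 1, 2 or 4 (adjusted p up to 0.113) and, with same-numbered mutant libraries paired, stood at an adjusted p of 0.0622. Mis12 averaged 65.1 ± 2.55 CPM in mutant against 72.4 ± 3.27 CPM in control centrocytes, and 64.0 ± 5.52 in mutant against 78.3 ± 9.93 in control centroblasts, and was not called (adjusted p = 0.316 and 0.0767).

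In the NDC80 complex, which binds the microtubule, Spc24 fell in mutant centrocytes and Nuf2 and Spc24 were lower in centrocytes of both genotypes. Nuf2 had 57.0, 49.8, 74.9 and 56.4 CPM in the 4 mutant centrocyte libraries against 92.6, 86.2, 70.9 and 81.2 CPM in the control centrocyte libraries. The centroblast libraries had 96.1, 119, 114 and 79.0 CPM in the 4 mutant libraries against 159.7, 146, 129 and 98.9 CPM in the control libraries. Zones did not overlap in either genotype, at −0.78 ± 0.16 (adjusted p = 0.00282) in mutants and −0.69 ± 0.16 (adjusted p = 0.00419) in controls. Between genotypes Nuf2 differed by −0.48 ± 0.16 in centrocytes, which missed the threshold (adjusted p = 0.0521). Spc24 averaged 44.0 ± 5.19 CPM in mutant against 58.5 ± 3.31 CPM in control centrocytes, a difference of −0.41 ± 0.12 (adjusted p = 0.0218), and this call ended without control centrocyte library 4 or mutant centrocyte library 3 (adjusted p up to 0.0647). Its zone difference was −0.51 ± 0.12 (adjusted p = 0.00533) in mutants and −0.34 ± 0.11 (adjusted p = 0.0375) in controls, where the call ended without control centroblast library 2, 3 or 4 or control centrocyte library 2, 3 or 4 (adjusted p up to 0.119). Ndc80 and Spc25 were called in no unpaired comparison, with −0.50 ± 0.19 (adjusted p = 0.0714) and −0.41 ± 0.17 (adjusted p = 0.0979) in centrocytes, although no mutant centrocyte library of Ndc80 overlapped the controls.

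Zwint, which encodes a partner of KNL1, was among the few members with a positive genotype estimate. It had 80.2, 76.8, 89.5 and 84.9 CPM in the 4 mutant centrocyte libraries against 83.5, 70.5, 70.0 and 73.2 CPM in the control centrocyte libraries. Its centroblast values were 89.5, 103, 105 and 88.5 CPM in the 4 mutant libraries against 101, 92.6, 94.8 and 97.4 CPM in the control libraries. It was lower in control centrocytes than in control centroblasts at −0.38 ± 0.09 (adjusted p = 0.00520), while in mutants the zone difference was −0.22 ± 0.09 (adjusted p = 0.114) and the libraries overlapped; between genotypes it was 0.16 ± 0.09 (adjusted p = 0.248) in centrocytes. Ska1, of the complex that tracks depolymerizing microtubule ends, was lower in centrocytes at −0.55 ± 0.14 (adjusted p = 0.0100) in mutants and −0.45 ± 0.14 (adjusted p = 0.0201) in controls, and the control call ended without control centrocyte library 2, 3 or 4 (adjusted p up to 0.0705). Knl1, the scaffold of the BUB proteins, had 60.2, 44.9, 52.8 and 52.1 CPM in the 4 mutant centrocyte libraries against 63.8, 93.03, 77.0 and 96.0 CPM in the control centrocyte libraries. In the centroblast groups the values were 70.5, 63.6, 78.4 and 42.2 CPM in the 4 mutant libraries against 119, 113, 79.9 and 29.3 CPM in the control libraries. Although its centrocyte groups did not overlap, no difference of Knl1 was called (−0.65 ± 0.30, adjusted p = 0.145 in centrocytes), and control centroblast library 4 lay far below its group.

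**Figure D4:**
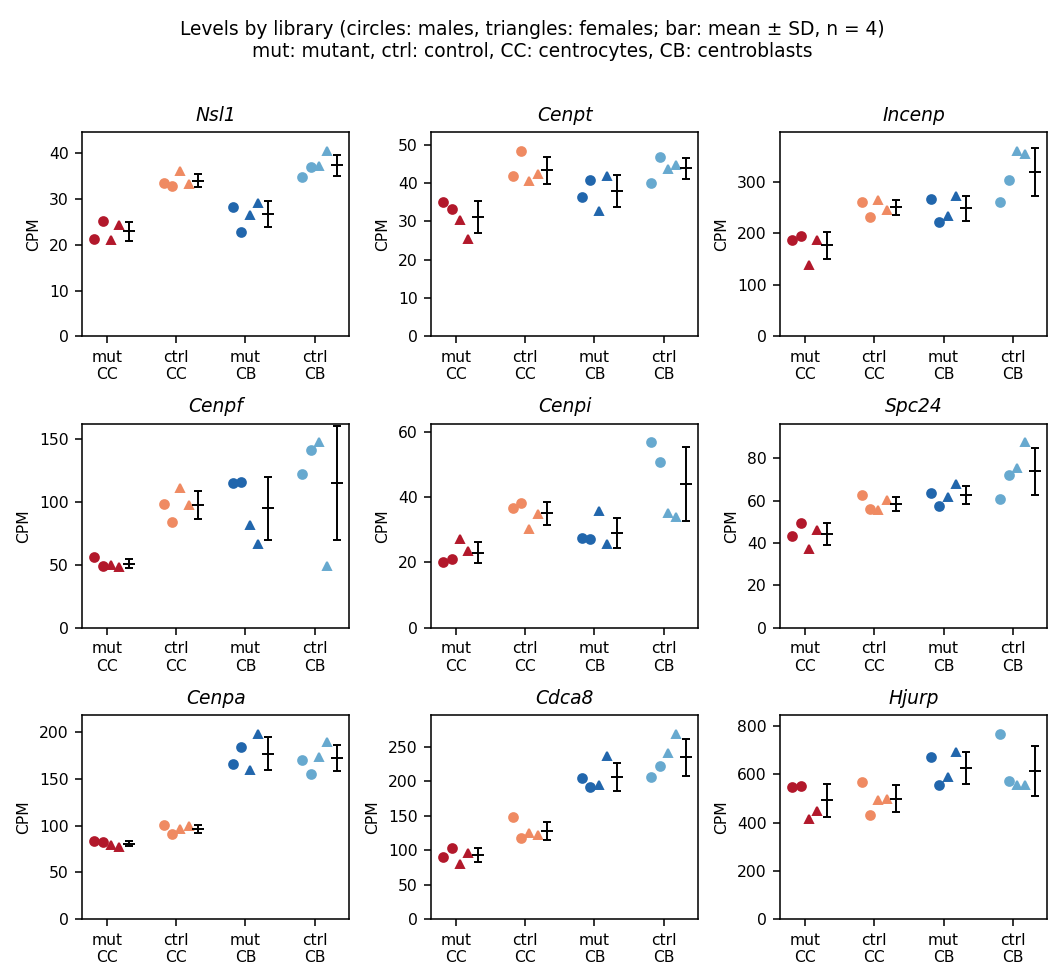
CPM of 9 members in every library (circles, males; triangles, females), with the mean and SD of each group of 4 as a black bar; mut CC and ctrl CC are mutant and control centrocytes, mut CB and ctrl CB the centroblasts. Nsl1 separates the genotypes in both cell types, Cenpf separates them in centrocytes and overlaps in centroblasts, Cenpa and Cdca8 separate the zones, and Hjurp overlaps between genotypes.

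The 2 corona genes had the largest genotype differences of all members in centrocytes. Cenpf (chr1:189640606-189688086), a large coiled-coil protein that coats the kinetochore before anaphase, had 56.1, 49.1, 50.3 and 48.3 CPM in the 4 mutant centrocyte libraries against 98.5, 83.9, 111 and 98.1 CPM in the control centrocyte libraries. Among centroblasts the libraries had 116, 116, 81.6 and 66.9 CPM in the 4 mutant libraries against 122, 141, 148 and 49.0 CPM in the control libraries. Every mutant centrocyte library was thus below every control one, at −0.94 ± 0.25 (adjusted p = 0.0156), or about 1.92-fold lower, while centroblasts overlapped (−0.28 ± 0.25, adjusted p = 0.564). Cenpf was also lower in mutant centrocytes than in mutant centroblasts, at −0.90 ± 0.25 (adjusted p = 0.0194), a call that ended without mutant centroblast library 1 or 2 (adjusted p up to 0.0622); in controls the zone difference was −0.23 ± 0.25 (adjusted p = 0.522). Cenpe, the kinetochore kinesin, had 119, 109.9, 116 and 101 CPM in the 4 mutant centrocyte libraries against 212, 183, 222 and 192 CPM in the control centrocyte libraries. Centroblasts had 219, 234, 131 and 119 CPM in the 4 mutant libraries against 214, 259, 274 and 84.4 CPM in the control libraries. Its centrocyte groups did not overlap and differed by −0.86 ± 0.27 (adjusted p = 0.0395), but the call ended without control centrocyte library 1, 2, 3 or 4 or mutant centrocyte library 1, 2, 3 or 4 (adjusted p up to 0.0897). In centroblasts library 4 of each genotype was lowest, the groups overlapped (−0.24 ± 0.27, adjusted p = 0.662), and the zone differences were −0.66 ± 0.27 (adjusted p = 0.113) in mutants and −0.04 ± 0.27 (adjusted p = 0.934) in controls. Without mutant centrocyte libraries 3 and 4 the genotype difference of Cenpf in centrocytes was −0.89 (adjusted p = 0.127).

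Of the 5 checkpoint genes, Bub1b, Bub3 and Mad2l1 were lower in centrocytes of both genotypes, and none was called between genotypes. Bub1b encodes BubR1, a subunit of the mitotic checkpoint complex. It had 188, 180.5, 157 and 190.4 CPM in the 4 mutant centrocyte libraries against 250.2, 194, 212 and 213 CPM in the control centrocyte libraries. The centroblast libraries had 276, 251, 286 and 317 CPM in the 4 mutant libraries against 317, 322, 335 and 358 CPM in the control libraries. There was no overlap between zones (−0.66 ± 0.10, adjusted p = 0.000200 in mutants; −0.62 ± 0.10, adjusted p = 0.000242 in controls) or, by a narrow margin in centroblasts, between genotypes, where the differences missed the threshold at −0.28 ± 0.10 (adjusted p = 0.0648) in centrocytes and −0.24 ± 0.10 (adjusted p = 0.157) in centroblasts. Bub3, its partner in the complex, had 214, 229, 256 and 241 CPM in the 4 mutant centrocyte libraries against 253, 196, 205 and 207 CPM in the control centrocyte libraries. Its centroblast values were 308, 349, 319 and 354 CPM in the 4 mutant libraries against 291, 312, 350.5 and 415 CPM in the control libraries. Centrocytes were lower at −0.50 ± 0.12 (adjusted p = 0.00602) in mutants and −0.67 ± 0.12 (adjusted p = 0.000402) in controls, without overlap, and the genotype estimates were 0.13 ± 0.12 (adjusted p = 0.473) in centrocytes and −0.04 ± 0.12 (adjusted p = 0.877) in centroblasts. Mad2l1, which encodes MAD2, averaged 128 ± 21.2 CPM in mutant centrocytes against 190.3 ± 20.8 in mutant centroblasts, and 145 ± 13.2 in control centrocytes against 228 ± 47.6 in control centroblasts. It too was lower in centrocytes, at −0.57 ± 0.14 (adjusted p = 0.0102) in mutants and −0.65 ± 0.14 (adjusted p = 0.00268) in controls. The kinase genes Bub1 and Ttk were called in no unpaired comparison, although their mutant centrocyte libraries all lay below the control ones, with differences of −0.63 ± 0.21 (adjusted p = 0.0509) and −0.49 ± 0.17 (adjusted p = 0.0582).

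The shugoshins protect cohesin at centromeres until anaphase. Sgo1 had 31.1, 29.0, 33.2 and 28.9 CPM in the 4 mutant centrocyte libraries against 42.0, 46.4, 38.4 and 44.5 CPM in the control centrocyte libraries. In the centroblast groups the values were 44.7, 52.8, 47.7 and 36.5 CPM in the 4 mutant libraries against 68.8, 64.7, 50.4 and 41.9 CPM in the control libraries. It fell in mutant centrocytes, at −0.49 ± 0.15 (adjusted p = 0.0302), a call that ended without control centrocyte library 2 or 4 or mutant centrocyte library 2 or 4 (adjusted p up to 0.0798), and was not called in centroblasts (−0.31 ± 0.14, adjusted p = 0.204). Between zones it was lower in centrocytes at −0.57 ± 0.15 (adjusted p = 0.0117) in mutants and −0.40 ± 0.14 (adjusted p = 0.0486) in controls, and the control call ended without control centroblast library 1 or 2, mutant centroblast library 1 or 3, control centrocyte library 1, 2, 3 or 4 or mutant centrocyte library 1, 2 or 4 (adjusted p up to 0.136). Sgo2a was not called in any unpaired comparison and had a centrocyte difference of −0.64 ± 0.24 (adjusted p = 0.0792), and 35.0% of its exon bases lie opposite exons of Kctd18, so that without a stated strand setting its counts are uncertain. The same holds for Cenpu (26.7% of exon bases, opposite Primpol), Cenpp (12.6%, opposite Aspn and Ippk), Oip5 (9.67%, opposite Nusap1), Mis12 (7.69%, opposite Derl2), Cdca8 (4.48%, opposite 9930104L06Rik), Cenpk (4.45%, opposite Ppwd1) and Cenpq (3.65%).

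The chromosomal passenger complex was, like the corona, called in full in mutant centrocytes. Cdca8 (chr4:124918465-124939311), which encodes borealin, had 90.6, 104, 80.1 and 96.2 CPM in the 4 mutant centrocyte libraries against 148, 119, 125 and 122 CPM in the control centrocyte libraries. Among centroblasts the libraries had 204, 192, 194 and 236 CPM in the 4 mutant libraries against 206, 223, 241 and 269 CPM in the control libraries. Zones did not overlap, at −1.16 ± 0.11 (adjusted p = 1.81e-06) in mutants and −0.87 ± 0.11 (adjusted p = 2.47e-05) in controls, and mutant centrocytes lay below control centrocytes at −0.47 ± 0.11 (adjusted p = 0.00812), while centroblasts overlapped (−0.18 ± 0.11, adjusted p = 0.358). Birc5, which encodes survivin, had 77.5, 85.1, 95.4 and 80.1 CPM in the 4 mutant centrocyte libraries against 119, 108, 105 and 106 CPM in the control centrocyte libraries. Centroblasts had 138, 176, 149 and 165 CPM in the 4 mutant libraries against 167, 169, 179 and 201 CPM in the control libraries. Its zones did not overlap, with zone differences of −0.89 ± 0.10 (adjusted p = 8.95e-06) in mutants and −0.71 ± 0.10 (adjusted p = 5.99e-05) in controls, and genotype differences of −0.37 ± 0.10 (adjusted p = 0.0170) in centrocytes and −0.19 ± 0.10 (adjusted p = 0.270) in centroblasts. Both genes kept their zone and centrocyte genotype calls whichever library was left out. Without mutant centrocyte libraries 3 and 4 the genotype call of Cdca8 ended (adjusted p = 0.0949).

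Incenp, the scaffold that activates Aurora B, had 186, 195, 138 and 188 CPM in the 4 mutant centrocyte libraries against 261, 231, 264 and 246 CPM in the control centrocyte libraries. The centroblast libraries had 267, 221, 233 and 272 CPM in the 4 mutant libraries against 259.8, 304, 359.9 and 353 CPM in the control libraries. Mutants were lower in centrocytes without overlap, at −0.50 ± 0.12 (adjusted p = 0.0104), and in centroblasts the difference was −0.36 ± 0.12 (adjusted p = 0.0747) with overlap. Zone differences of Incenp were −0.49 ± 0.12 (adjusted p = 0.0109) in mutants and −0.35 ± 0.12 (adjusted p = 0.0432) in controls, and the control call ended without control centroblast library 2, 3 or 4, mutant centroblast library 1 or 3, control centrocyte library 1, 2, 3 or 4 or mutant centrocyte library 1 or 4 (adjusted p up to 0.125). Aurkb, the kinase itself, had 104, 118, 87.6 and 112 CPM in the 4 mutant centrocyte libraries against 135, 126, 151 and 138 CPM in the control centrocyte libraries. Its centroblast values were 152, 118, 139 and 150.2 CPM in the 4 mutant libraries against 135, 164, 189.5 and 199 CPM in the control libraries. Its call in mutant centrocytes, −0.38 ± 0.13 (adjusted p = 0.0473), was the weakest of the 14 and ended without control centroblast library 2 or 3, mutant centroblast library 1, 3 or 4, control centrocyte library 1, 2, 3 or 4 or mutant centrocyte library 1, 3 or 4 (adjusted p up to 0.138). Between zones Aurkb was lower in mutants at −0.40 ± 0.13 (adjusted p = 0.0369), a call that ended without mutant centroblast library 1, 3 or 4 or mutant centrocyte library 1, 3 or 4 (adjusted p up to 0.103), and −0.32 ± 0.13 in controls (adjusted p = 0.0681).

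Per kilobase of merged exons, Bub1b, Incenp and Hjurp had the highest levels in control centroblasts, at 78.0, 73.7 and 73.5 CPM per kilobase, followed by Aurkb (58.3), Birc5 (52.6) and Bub3 (48.8). The SD was 5.48% of the mean for Bub1b, 14.7% for Incenp and 16.8% for Hjurp, so these neighbours did not differ beyond their spread on this scale. The order depends on the length used. Merged exons of Hjurp span 8331 bases and its longest transcript 4878, against 4275 and 3668 for Bub1b. Lowest were Cenpu (3.21) and Cenpw (3.26). In mutant centrocytes the highest level was that of Hjurp, at 59.0 CPM per kilobase, then Bub1b (41.9) and Incenp (40.8).

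Within groups the members did not scatter evenly. In control centroblast library 4, Knl1 had 29.3 CPM against 79.9 to 119 in the other control centroblast libraries. Cenpe had 84.4 against 214 to 274 CPM, and Sgo2a 21.5 against 55.0 to 63.1 CPM. The deviations of the 38 members in that library followed the GC content of the longest transcript, with a Spearman rho of 0.690, and so did those of all 14949 tested genes with a known transcript (0.647). In control centroblast library 1 the rho over members was −0.772, and in mutant centroblast library 4 it was 0.784. Centrocyte libraries had such trends as well. The rho over members was 0.760 and −0.677 in mutant centrocyte libraries 2 and 3, and −0.726 and 0.661 in control centrocyte libraries 2 and 3. In the remaining centrocyte libraries it lay between −0.163 and 0.431. These points share a library and are a description. When GC content and transcript length were fitted as an offset in each library, 22 members fell in mutant centrocytes and 9 in mutant centroblasts, where 12.6% and 8.83% of all tested genes fell. With the same offset 26 members were lower in centrocytes of mutants and 20 in those of controls, where 12.7% and 17.8% of all tested genes were lower.

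**Figure D5:**
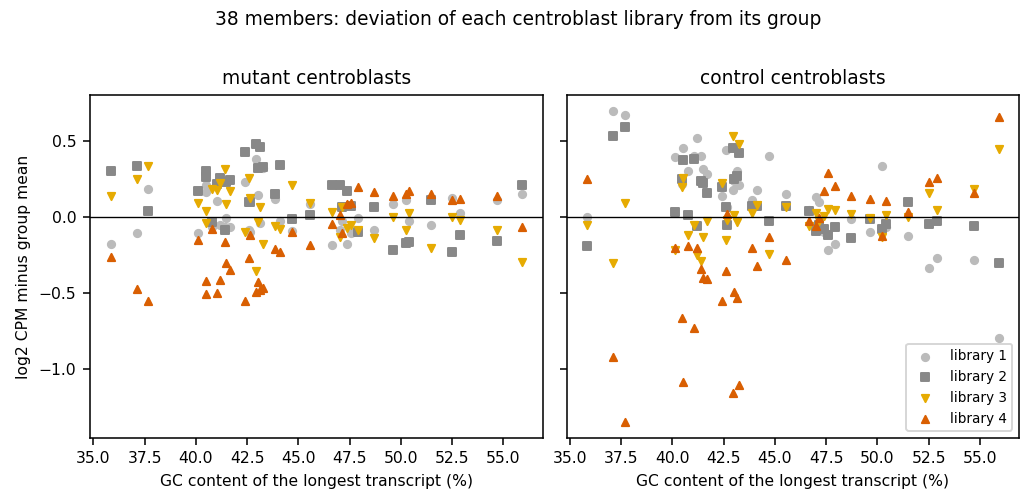
Deviation of each member's log2 CPM from its group mean against the GC content of its longest transcript, for the 4 mutant centroblast libraries (left) and the 4 control centroblast libraries (right). In control library 4 (orange triangles) AT-rich members lie lowest, with a Spearman rho of 0.690 over the 38 members.

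Other genes of the pathway were described with the same test. Of 22 other kinetochore and centromere genes, 7 fell in mutant centrocytes and 3 in mutant centroblasts. Among all tested genes, 9.15% and 6.4% fell there. Of the same 22, 4 were lower in mutant and 7 in control centrocytes than in centroblasts. The shares of all tested genes were 7.07% and 12.9%. None of the 22 was called higher in any of these comparisons. Their medians were −0.27 and −0.23 between genotypes in centrocytes and centroblasts, and −0.28 between zones in each genotype. Zwilch and Kntc1 encode subunits of the RZZ complex, which brings dynein and the MAD proteins to the kinetochore. Zwilch averaged 31.97 ± 3.64 CPM in mutant against 53.6 ± 4.67 CPM in control centrocytes, a difference of −0.75 ± 0.14 (adjusted p = 0.00160), and 38.7 ± 3.01 against 58.9 ± 12.6 CPM in centroblasts of the same genotypes (−0.61 ± 0.14, adjusted p = 0.00785). Kntc1 was at −0.58 ± 0.12 (adjusted p = 0.00271) in centrocytes and −0.50 ± 0.12 (adjusted p = 0.00915) in centroblasts. Between zones neither was called, whereas Knstrn, an outer kinetochore and spindle protein, was lower in centrocytes at −1.45 ± 0.08 (adjusted p = 1.49e-08) in mutants and −1.07 ± 0.08 (adjusted p = 9.45e-08) in controls, and the depolymerase Kif2c was lower at −1.10 ± 0.10 (adjusted p = 1.40e-06) in mutants and −0.86 ± 0.10 (adjusted p = 1.29e-05) in controls. Pmf1, a further subunit of the MIS12 complex, was called in no comparison and had 122 ± 11.8 CPM in mutant against 92.5 ± 6.80 CPM in control centrocytes (0.40 ± 0.17, adjusted p = 0.110).

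Of 19 genes of the anaphase promoting complex and its regulators, 2 fell and 1 rose in mutant centrocytes. Among all tested genes, 9.15% fell and 7.37% rose there. In mutant centroblasts 1 of the 19 fell, against 6.4% of all tested genes, so these genotype counts were near the background. Between zones 5 and 9 of the 19 were lower in mutant and control centrocytes than in centroblasts. The shares of all tested genes were 7.07% and 12.9%. Medians were −0.09 and −0.06 between genotypes in centrocytes and centroblasts, and −0.27 between zones in each genotype. Cdc20, the activator that the checkpoint restrains, averaged 88.2 ± 7.95 CPM in mutant centrocytes against 247 ± 29.9 in mutant centroblasts, and 113 ± 16.5 in control centrocytes against 260.2 ± 47.5 in control centroblasts. Its zone differences were −1.49 ± 0.14 (adjusted p = 9.85e-07) and −1.20 ± 0.14 (adjusted p = 7.23e-06), and those of the ubiquitin-conjugating enzyme gene Ube2c were −1.37 ± 0.10 (adjusted p = 1.24e-07) and −1.05 ± 0.10 (adjusted p = 1.35e-06). Ube2c and Fbxo5, an inhibitor of the complex, differed by −0.51 ± 0.10 (adjusted p = 0.00282) and −0.51 ± 0.13 (adjusted p = 0.0110) between genotypes in centrocytes, while Anapc13 rose by 0.56 ± 0.18 (adjusted p = 0.0454). Anapc1, the scaffold of the complex, was not called, with 224 ± 35.2 CPM in mutant against 233 ± 12.6 CPM in control centrocytes. Of 12 genes of cohesin and separase, 2 fell in mutant centrocytes and 1 in mutant centroblasts, and 3 were lower in centrocytes of each genotype. Of all tested genes, 9.15% and 6.4% fell in these mutant groups, and 7.07% and 12.9% were lower in mutant and control centrocytes. The medians of these 12 were −0.22 and −0.24 between genotypes in centrocytes and centroblasts, and −0.12 and −0.15 between zones in mutants and controls. Espl1, which encodes separase, averaged 69.2 ± 10.3 CPM in mutant against 117 ± 6.87 CPM in control centrocytes (−0.76 ± 0.14, adjusted p = 0.00127), and the cohesin subunit Rad21 was lower in centrocytes at −0.66 ± 0.11 (adjusted p = 0.000372) in mutants and −0.73 ± 0.11 (adjusted p = 8.76e-05) in controls. Smc1a, which encodes a core subunit of cohesin, was not called, with 356 ± 27.4 CPM in mutant against 433 ± 71.3 CPM in control centrocytes.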

How the data were processed

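The authors deposited 1 table of raw counts of reads per gene for 16 libraries. Per the labels' protocols, cells were sorted into Trizol, total RNA of RNA Integrity Number 8 or above was kept, and libraries were made with Illumina TruSeq RNA kits. Per the submitters' processing notes, the tools were Trim Galore, cutadapt, STAR 2.5.3a and featureCounts 1.4.5-p1 of Subread, with the mm10 build. The strand setting and the annotation release are not given in the sources used here. The naive B cells of the series' text were not analysed here.

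The counts were tested with edgeR 4.0.16 in R 4.3.3 (with limma 3.58.1): filterByExpr, TMM scaling and the quasi-likelihood test over 4 groups with 12 residual degrees of freedom, with Benjamini-Hochberg adjustment over 15240 genes. The method was tested on simulated data. Those counts were drawn independently for each library, without GC trends or paired libraries, so that test does not cover such features. Depth was 35230563 to 44466911 counts per library, and PCR duplicates were not separable by a molecular identifier. Alternatives were DESeq2 1.42.0, RLE factors, other filters, the compared groups alone, a replicate block, sex as a covariate, libraries left out and a GC and length offset. The replicate block was fitted to the compared groups alone, except in the interaction. The offset and the joint omission of libraries 4 of both centroblast groups were chosen after seeing the data.

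The members, lists and tests were chosen with earlier results of these data known. Values in every library are given, in each comparison, for up to 6 called members of smallest p, up to 3 uncalled members of highest level, and at least 1 member of each complex; Knl1 and the genes whose sequences are shown were added after their values were seen. Replicate numbers come from the labels, which do not say that a number marks a mouse. Deviations of same-numbered mutant centrocyte and centroblast libraries correlated at 0.258 to 0.315 over genes, above 0.1 in every pair. For these the fit with the number as a block is therefore given beside the unpaired one, without the pairing being shown. Some differently numbered mutant libraries of the same sex correlated as closely, at 0.268 for centrocyte library 2 with centroblast library 1 and 0.311 for 4 with 3, so number and sex are not separated by this check. The range was −0.00385 to 0.432 for controls, −0.0199 to 0.316 between genotypes in centroblasts and −0.0899 to 0.117 in centrocytes. Levels per kilobase use merged exons of GENCODE M21.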

Additional observations from a re-analysis of the deposited data

Results flagged for a closer look

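In 8 of the 152 groups of 4 libraries (38 members in 4 groups), 1 library lay so far from the rest that its gap, divided by the group's range, was above Dixon's 95% critical value for 4 values; chance gives about 1 in 20 groups, and 5.26% were found. In mutant centrocytes, library 3 was low for Incenp (138 CPM) and high for Cenpk (14.3 CPM), Spc25 (33.9 CPM) and Ttk (36.5 CPM). In control centrocytes, library 2 was low for Mis12 (67.5 CPM). In control centroblasts, library 4 was low for Cenpc1 (33.6 CPM) and Ndc80 (47.5 CPM), and library 1 was high for Hjurp (766 CPM).

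Cenpm went in opposite directions in the sexes in centroblasts. Mutant minus control means were 14.8 CPM in males, where both mutant libraries lay above both controls, and −20.9 CPM in females, where both lay below. The difference between the sexes was not tested, and 8.66% of all 15240 tested genes had such a split in centroblasts. Cenpm had the highest GC content of the members (55.9%). In control centroblast libraries 1 to 4 it had 19.9, 28.1, 47.5 and 54.9 CPM. In these libraries the deviations of all tested genes with a known transcript followed GC content with a Spearman rho of −0.716, −0.319, 0.419 and 0.647. The part of GC content in this split was not tested.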

How the results depend on the processing

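With 1 library left out at a time, members called numbered 1 to 14 between genotypes in centroblasts, 8 to 21 in centrocytes, 11 to 20 between zones in controls and 15 to 23 in mutants; all genes called ranged over 1110 to 2173, 1601 to 3088, 3093 to 4401 and 1818 to 2910, and the interaction stayed at 0. The members called whichever library was left out numbered 1 of 4, 7 of 14, 11 of 17 and 13 of 19 in these comparisons. No called member turned its sign under any alternative run. Of 1941 values of single genes, 1701 kept their direction and side of the threshold.

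Members called in centroblasts, 4 at first, numbered 8 with DESeq2, 2 without a filter and 1 where those 2 groups were fitted alone. They numbered 9 with the GC and length offset and 7 without libraries 4 of both centroblast groups. The shares of all tested genes that fell were 7.82%, 2.81%, 4.98%, 8.83% and 6.5%, in that order. In centrocytes, 14 at first, members called numbered 23 with DESeq2, 23 where those 2 groups were fitted alone and 22 with the offset. The shares of all tested genes that fell were 11.1%, 11.6% and 12.6%. Without the female mutant centrocyte libraries 3 and 4, 5 members were called, where 4.55% of all tested genes fell. That run left 11 members between zones in mutants, where 4.54% of all tested genes were lower. All genes called in centroblasts (1595 at first) numbered 1056 where those 2 groups were fitted alone and 2847 with the offset. In centrocytes (2517) they numbered 1224 without mutant libraries 3 and 4 and 4050 with the offset, and between zones in mutants (2438) 3954 with the offset. DESeq2 called 1 gene in the interaction. The cause of these shifts was not tested, beyond fewer libraries where some were left out.

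With the replicate block, fitted to the compared groups alone, 0 members and 871 genes were called between genotypes in centroblasts. Of all tested genes, 4.25% fell there. Between zones in mutants 27 members were called, where 10.4% of all tested genes were lower. In controls 13 were called between zones, where 9.6% of all tested genes were lower. Offset and block together gave 8 members in centroblasts, 24 in centrocytes, and 29 members and 4576 genes between zones in mutants. The shares of all tested genes that were lower were 7.53%, 10.6% and 15%. Genotype comparisons share only a number. The block turned the zone difference of Cenpe in controls to 0.0805.

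Every member whose sign turned was uncalled; Hjurp, Bub3 and Cenpe were among them. Hjurp in centroblasts ranged over −0.0310 to 0.152 with 1 library left out and was −0.0656 without libraries 4. Hjurp in centrocytes ranged over −0.0858 to 0.0495, and was 0.152 without mutant libraries 3 and 4, 0.0550 with the offset and 0.0414 with offset and block. Bub3 in centroblasts ranged over −0.117 to 0.0576, and was 0.0509 with the offset, 0.0683 with offset and block and 0.0282 without libraries 4. Cenpe was 0.0187 in centroblasts with offset and block; between zones in controls it ranged over −0.304 to 0.119, and was 0.0118 with offset and block. Gene-level counts do not separate transcripts of the 2 Ezh2 alleles at any depth.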

Other observations

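Split by the sex read from Y-linked transcripts, with 2 libraries per sex in a group, the mutant minus control log2 CPM was negative in both sexes for 30 of 38 members in centrocytes and 28 in centroblasts. The median over members was −0.46 in males and −0.27 in females in centrocytes, and −0.24 in males and −0.20 in females in centroblasts. All 14 members called in centrocytes and all 4 called in centroblasts were negative in both sexes. These values carry no test, and the difference between the sexes was not tested.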
